A study of Mus musculus with 4 samples.

Results

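The genes described here encode the subunits of voltage-gated sodium and calcium channels, measured by RNA-seq in mouse embryonic stem cells (ESCs) with and without the transcriptional repressor REST. They were taken as every row of the count table whose symbol starts with Scn, a number and the letter a or b, or with Cacn and the letter a, b or g. The rule found 40 genes among 26301 with an identifier, 14 for sodium and 26 for calcium channels. The epithelial sodium channel genes (Scnn) do not match it. WT ESCs were the N6 line and Rest-/- ESCs the N8 line, with 2 biological replicates each. Both lines grew in medium with serum and leukemia inhibitory factor. Irradiated fibroblasts of mouse embryos served as feeder cells and were diluted out during the last 3 passages, on gelatin. Each genotype was 1 line, so that the effect of the Rest mutation and other differences between the lines cannot be told apart. The study asked how REST and the Polycomb complex PRC2 relate at neuronal genes in ESCs, and the RNA-seq compared expression with and without REST.

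Voltage-gated sodium channels open within moments of a depolarization and carry the rising phase of the action potential. Their pore is a single large alpha subunit, accompanied by small beta subunits that cross the membrane once and tune its gating and placement. Voltage-gated calcium channels couple depolarization to transmitter release, contraction and gene expression, and pair a pore-forming alpha1 subunit with an intracellular beta and an extracellular alpha2delta subunit. The gamma genes encode a muscle channel subunit and a set of relatives, several of which accompany AMPA-type glutamate receptors instead. REST binds a DNA element named RE1, first described in part through a sodium channel gene, and recruits corepressors that deacetylate and demethylate histones.

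The RE1 motif was searched around these genes, since the element is the most direct sequence link between REST and a channel gene. The letters searched were CAGNACCNNGGACAG, 15 bases of which 12 are informative, on both strands of NCBIM37 (mm9). A match at all 12 lay within 20 kb of an annotated start site for 9 of the 40 genes, or 22.5%, beside 3.76% of the 22111 genes with a position in the annotation. Within 5 kb the shares were 12.5% and 1.49%, and within 1 kb they were 7.5% and 0.606%. Both sets had a median of 2 annotated starts per gene. The 9 matches are printed from the strand on which the motif reads 5′ to 3′, with 7 bases on each side and the 12 informative positions in capitals, since they are the sites to which the expression values are set below.
Scn3b: cttggctCAGcACCacGGACAGtagcctt
Cacna1b: acgccgtCAGcACCacGGACAGctgcctg
Scn2a1: tggctttCAGcACCacGGACAGcaccaga
Cacna2d4: ctgcctcCAGgACCatGGACAGaaaccat
Cacng7: aatgcttCAGgACCatGGACAGcaccatg
Cacna1f: cgcgctcCAGcACCgtGGACAGagcccgg
Cacna1i: tcaggatCAGcACCacGGACAGcgacagg
Cacna1h: actgcttCAGcACCacGGACAGcgaccgc
Scn10a: tgaggttCAGcACCacGGACAGagcagag
Of these 9 matches, 6 held the same 15 bases from the first to the last motif position, those of Scn3b, Cacna1b, Scn2a1, Cacna1i, Cacna1h and Scn10a. The matches of Cacna2d4 and Cacng7 shared another run of 15.

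Of the 3 matches within 1 kb, the one of Scn3b stood at chr9:40077329-40077343 on the minus strand, 534 bases inside the gene and in the 5′ UTR of its first exon. The match of Cacna1b stood at chr2:24617605-24617619 on the plus strand, in an intron and 955 bases downstream of the nearest annotated start. The match of Scn2a1 stood at chr2:65458023-65458037 on the plus strand, 884 bases upstream of the gene. The surroundings of the last pair are shown over 115 bases, with the whole motif in capitals, since these genes carry the same 15 bases at a like distance and had different expression values.
Cacna1b, chr2:24617555-24617669, plus strand: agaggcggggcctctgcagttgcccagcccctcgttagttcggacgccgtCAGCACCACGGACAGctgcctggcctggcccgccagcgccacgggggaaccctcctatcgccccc
Scn2a1, chr2:65457973-65458087, plus strand: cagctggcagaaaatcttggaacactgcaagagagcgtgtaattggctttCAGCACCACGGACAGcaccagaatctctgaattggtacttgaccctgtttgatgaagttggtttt
The other 6 lay farther out. The match near Cacna2d4 (chr6:119183251-119183265) was 3286 bases upstream of its start. The match near Cacng7 (chr7:3328511-3328525) was 4537 bases upstream and inside the neighbouring gene Prkcc. The match near Cacna1f (chrX:7215865-7215879) lay past the end of the gene and inside Syp, 7470 bases downstream of the last start annotated within Cacna1f. Syp is the gene of the synaptic vesicle protein synaptophysin. The match near Cacna1i (chr15:80108250-80108264) was 9411 bases upstream, and that near Scn10a (chr9:119616020-119616034) was 12549 bases upstream. The match of Cacna1h (chr17:25537583-25537597) lay in an intron, 11173 bases from the nearest start. A match is a description of the sequence and not a bound site, and where none was found, these letters are absent from the window and nothing more is known from the search.

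The 4 libraries held between 22293966 and 30953863 counts on genes. Levels are given as CPM, which are counts per 1e6 counts of a library whose size was scaled by edgeR's TMM method, and each mean of 2 libraries is followed by its SD. Of all genes, 15444 passed edgeR's filter on low counts (filterByExpr) and were compared between genotypes by the quasi-likelihood (QL) test of edgeR, with p-values adjusted by the Benjamini-Hochberg method over all of them. SE is the standard error of a log2 fold change. The replicates are labelled as biological without saying whether they were separate cultures, so the p-values measure the spread between these libraries. Rest had 255.0 and 233.0 CPM in the WT and 164.0 and 176.0 CPM in the Rest-/- libraries, lower in both, with a log2 fold change of -0.52 and a QL adjusted p of 0.526. Its transcripts were thus still counted in the N8 line, and the counts do not show which exons they cover. Among markers of pluripotent cells, 9 of 10 had a row and their summed level was between 3910 and 4060 CPM in WT and between 3200 and 3360 CPM in Rest-/- ESCs. Markers of neurons and neural progenitors summed to between 174 and 217 CPM, most of it Tubb3, and Neurod1, at 4.82 to 20.2 CPM, Sox1, at 4.26 to 5.49 CPM, and Pax6, at 2.57 to 6.72 CPM, were well above the floor. Neurod2, at 0 counts in every library, Dcx, at 8 counts or fewer, and Neurog1 and Neurog2 were at or near it. Fibroblast markers summed to 31.5 and 20.6 CPM in WT and to 110 and 23.6 CPM in Rest-/- ESCs, so that Rest-/- replicate 1 stood apart. Col1a1, at 46.1 CPM, and Col1a2, at 28.5 CPM, made up most of that library's sum. Col3a1, Col6a3, Postn, S100a4 and Pdgfra were highest in it too. Thy1, at 6.93 CPM there and 6.94 and 7.06 CPM in WT, was not raised. Lum was at 0 in all 4 libraries and Dcn at 5 counts or fewer. Markers of striated and cardiac muscle summed to 23.3 and 48.7 CPM in WT and to 33.1 and 54.0 CPM in Rest-/- ESCs, and Acta1 was the one that varied most in counts. None of the 9 pluripotency, 4 neural, 8 fibroblast and 6 muscle markers that could be tested passed the QL test after adjustment. In the exact test with tag-wise dispersion, which called 0.46% of all tested genes lower, the pluripotency genes Zfp42 (log2 fold change -1.36, adjusted p 1.76e-05) and Fgf4 (-0.98, 0.00235) were lower in Rest-/- ESCs. The fibroblast list gene Pdgfra (2.10, 0.00351), also used by primitive endoderm, was higher, and their part in the channel values was not tested. In bulk RNA, fewer cells of a type and less RNA per cell cannot be told apart.

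Of the 40 channel genes, 29 passed the filter. None passed the adjusted p threshold of 0.05 in the QL test, which called 9 of all tested genes, or 0.0583%. At an unadjusted p under 0.05, Cacna1b and Scn3b were higher in Rest-/- ESCs and no channel gene was lower, whereas 3.85% of all tested genes were higher and 2.86% lower. With edgeR's exact test, 1 channel gene (Cacna1b) was higher under tag-wise dispersion, where 1.31% of all tested genes were, and 2 (Cacna1b and Scn3b) under common dispersion, where 1.59% were. DESeq2 called the latter 2 higher as well, beside 1.17% of all tested genes. Fold changes were positive for 18 of the 29 and negative for 11, and their median was 0.08 on the log2 scale, beside -0.0047 for all tested genes. That median was 0.39 without WT replicate 2, -0.0017 without WT replicate 1 and 0.24 without the filter on low counts. For 4 of the 29, both Rest-/- libraries were above both WT libraries (Cacna1b, Scn3b, Cacng7 and Cacnb1), or 13.8%, beside 16.5% of all tested genes. They were below for 3 (Scn3a, Cacna2d2 and Cacng4), or 10.3%, beside 15.4%. These shares were near or below those of all genes, and the largest fold changes belonged to Scn3b and Cacna1b.

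**Figure D1:**
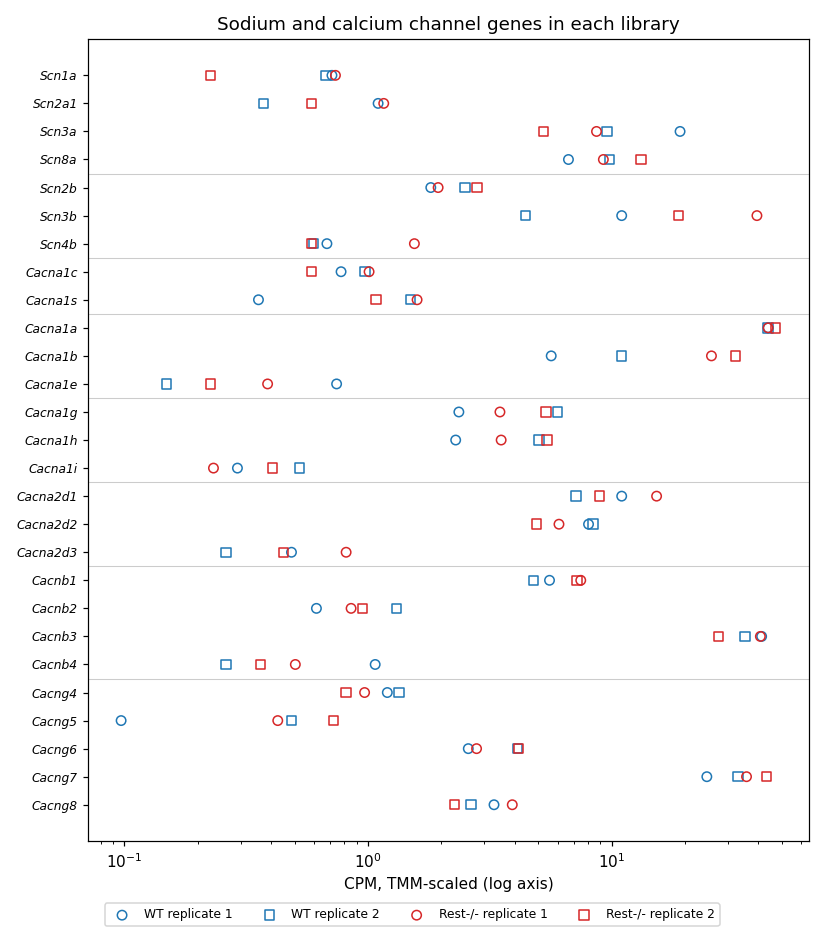
Level of 27 of the 29 tested channel genes in each library, in TMM-scaled CPM on a log axis, with WT in blue, Rest-/- in red, replicate 1 as circles and replicate 2 as squares; lines part the subunit families. The red symbols of Scn3b and Cacna1b lie to the right of both blue ones, whereas for most other genes the colours overlap.

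The sodium channel beta subunits held the largest fold change of the 29 tested genes. Scn3b, whose product is the beta3 subunit of neurons and heart, had 342 and 119 counts in WT and 1020 and 416 counts in Rest-/- ESCs. These were 11.0 and 4.44 CPM in WT and 39.5 and 18.8 CPM in Rest-/- ESCs, or 7.75 ± 4.67 and 29.1 ± 14.6 CPM (SD, n = 2). Both Rest-/- libraries were above both WT libraries, and replicate 1 was the higher one in each genotype. The log2 fold change was 1.91 (SE 0.60), a 3.75-fold higher level, with an adjusted p of 0.667 in the QL test, 0.132 and 0.000522 in the exact test (tag-wise, then common dispersion), and 0.0345 in DESeq2. Between the libraries of replicate number 1 the difference was 1.79 and between those of number 2 it was 1.96 on the log2 scale. Without Rest-/- replicate 1, which held more fibroblast marker RNA, the log2 fold change was 1.28 with an adjusted p of 1.0, and without WT replicate 1 it was 2.70 with an adjusted p of 0.0644, the lowest and the highest fold change with a library left out. In such a fit the lone library of a genotype is assumed to vary like the pair of the other. The Scn3b difference was thus similar for both replicate numbers, although no source links libraries of the same number. The libraries of 1 genotype differed from each other as well.

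For the beta subunits Scn2b and Scn4b the genotypes overlapped. Scn2b, the beta2 subunit, had 1.81 and 2.50 CPM in WT and 1.94 and 2.80 CPM in Rest-/- ESCs. Scn4b, the beta4 subunit, had 0.678 and 0.597 CPM in WT and 1.55 and 0.587 CPM in Rest-/- ESCs. Of the Scn4b values, the 1 high library was Rest-/- replicate 1, where the fibroblast markers summed to 110 CPM. Their part in this value was not tested.

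Of the 10 sodium channel alpha subunits, 5 were tested. Scn3a, the Nav1.3 pore of the embryonic nervous system, had 591 and 256 counts in WT and 224 and 116 counts in Rest-/- ESCs, or 19.1 and 9.56 CPM against 8.67 and 5.24 CPM. Both Rest-/- libraries were below both WT libraries, with a narrow gap between WT replicate 2 and Rest-/- replicate 1. The log2 fold change was -1.04 (SE 0.47), with an adjusted p of 0.854 in the QL test, 0.788 in the exact test with tag-wise dispersion and 0.674 in DESeq2. Scn3a was thus on the opposite side from Scn3b, although neither passed the QL test.

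Scn8a, the Nav1.6 pore of the axon initial segment and nodes of Ranvier, had 206 and 263 counts in WT and 239 and 292 counts in Rest-/- ESCs. As levels these were 6.65 and 9.82 CPM in WT and 9.25 and 13.2 CPM in Rest-/- ESCs. The genotypes overlapped, since Rest-/- replicate 1 was below WT replicate 2. This gave a log2 fold change of 0.45 (SE 0.34), which was 0.45 and 0.41 between libraries of the same number. Scn2a1, the Nav1.2 pore of excitatory neurons, had 34 and 10 counts in WT and 30 and 13 counts in Rest-/- ESCs, a log2 fold change of 0.24 (SE 0.70). Although Scn2a1 carries the motif upstream of its start that is shown above, its level was close to 1 CPM or lower in both genotypes.

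Scn1a, the Nav1.1 pore of inhibitory neurons, had 22 and 18 counts in WT and 19 and 5 counts in Rest-/- ESCs. The log2 fold change was -0.50 (SE 0.65) with all libraries and 0.0832 without Rest-/- replicate 2, the single library with a low count. The 5 alpha genes that did not pass the filter had 14 counts or fewer in every library. Scn9a, a pore of pain-sensing neurons, had 9 and 10 counts in WT and 14 and 8 counts in Rest-/- ESCs. Scn4a, the pore of skeletal muscle, had 4 and 3 against 7 and 1 counts, and Scn7a, Scn10a and Scn11a had 2 or fewer in every library. These 5 were not tested.

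The alpha1 pores of presynaptic calcium channels included both the steadiest and one of the most different channel genes. Cacna1b, the N-type pore (Cav2.2) that triggers transmitter release and is the target of omega-conotoxin, had 175 and 294 counts in WT and 663 and 716 counts in Rest-/- ESCs. These were 5.65 and 11.0 CPM in WT and 25.7 and 32.3 CPM in Rest-/- ESCs, or 8.31 ± 3.76 and 29.0 ± 4.71 CPM (SD, n = 2). The lower Rest-/- library was more than the sum of both WT levels, and for this gene replicate 2 was the higher one in each genotype. The log2 fold change was 1.80 (SE 0.39), a 3.49-fold higher level, with an adjusted p of 0.434 in the QL test, 0.00713 and 0.00147 in the exact test (tag-wise, then common dispersion), and 0.00212 in DESeq2. Between libraries of the same number the difference was 2.09 and 1.52. Leaving out WT replicate 1 gave a log2 fold change of 1.40 (adjusted p 0.306), leaving out Rest-/- replicate 2 gave 1.62 (0.509) and leaving out Rest-/- replicate 1 gave 1.96 (0.178). Leaving out WT replicate 2 gave 2.36, with an adjusted p of 0.0243 in the QL test, the single channel call made with a library left out. That fit holds 1 WT library, which is assumed to vary like the Rest-/- pair. Cacna1b was thus the channel gene with the smallest unadjusted p of the 29, 0.00725.

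Cacna1a, the P/Q-type pore (Cav2.1) that shares presynaptic terminals with Cacna1b, had 1360 and 1173 counts in WT and 1135 and 1045 counts in Rest-/- ESCs. Its levels were 43.9 and 43.8 CPM in WT and 43.9 and 47.2 CPM in Rest-/- ESCs. The log2 fold change was 0.05, and its standard error of 0.15 was the smallest among the 29 genes. In WT ESCs this pore thus stood well above Cacna1b, and the pair lay closer together in Rest-/- ESCs. Compared per kilobase of annotated exon, Cacna1a had 3.84 and Cacna1b 0.836 CPM per kb in WT, and they had 3.99 and 2.92 CPM per kb in Rest-/- ESCs. Cacna1e, the R-type pore (Cav2.3), had 23 and 4 counts in WT and 10 and 5 counts in Rest-/- ESCs. Its WT libraries lay on either side of both Rest-/- libraries, and its log2 fold change was -0.54 with a standard error of 0.88.

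The T-type pores open at low voltages and serve pacemaking. Cacna1g (Cav3.1) had 2.36 and 6.01 CPM in WT and 3.48 and 5.37 CPM in Rest-/- ESCs. Cacna1h (Cav3.2) had 2.29 and 5.04 CPM in WT and 3.52 and 5.42 CPM in Rest-/- ESCs. In both genes the replicate 2 libraries were above the replicate 1 libraries, as they were for the summed muscle markers, whose part in these values was not tested. The genotypes overlapped, with log2 fold changes of 0.08 (SE 0.56) and 0.29 (SE 0.50). Exons of Cacna1h overlap those of Tpsg1 on the other strand, and the strand setting of the counting is not given in the sources used here. Cacna1i (Cav3.3), a T-type pore of the thalamus, had 9 and 14 counts in WT and 6 and 9 counts in Rest-/- ESCs. The motif matches of Cacna1h and Cacna1i, more than 9 kb from a start, thus went with fold changes of opposite sign, each smaller than its standard error.

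The L-type pores, which serve muscle contraction and calcium signals to the nucleus, had low counts. Cacna1c (Cav1.2), the L-type pore of heart and neurons, had 24 and 26 counts in WT and 26 and 13 counts in Rest-/- ESCs. Cacna1s (Cav1.1), the pore of skeletal muscle, had 11 and 40 counts in WT and 41 and 24 counts in Rest-/- ESCs. For neither gene were the genotypes apart, with log2 fold changes of -0.12 (SE 0.46) and 0.54 (SE 0.76). Cacna1d (Cav1.3), the L-type pore of the sinus node and inner hair cells, had 7 counts in each of the 4 libraries and was not tested. Cacna1f (Cav1.4), the pore of photoreceptor terminals, had 8 and 5 counts in WT and 9 and 4 counts in Rest-/- ESCs and was not tested either.

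The intracellular beta subunits bring the alpha1 pore to the membrane. Cacnb3 was the most abundant of them, with 1278 and 945 counts in WT and 1053 and 609 counts in Rest-/- ESCs, or 41.3 and 35.3 against 40.8 and 27.5 CPM. The genotypes overlapped, and the log2 fold change was -0.17 (SE 0.25). Cacnb1, the beta subunit of skeletal muscle that also occurs in brain, had 5.56 and 4.78 CPM in WT and 7.47 and 7.22 CPM in Rest-/- ESCs. In Cacnb1 both Rest-/- libraries were above both WT libraries, with a log2 fold change of 0.51 (SE 0.26) and an adjusted p of 0.923 in the QL test. Exons of Cacnb1 overlap those of Gm11629 on the other strand, and Cacna1a, Cacna1d, Cacna2d2, Cacnb2, Cacnb4, Cacng2 and Scn9a have such antisense neighbours too. Cacnb2, the cardiac beta subunit, had 19 and 35 counts in WT and 22 and 21 counts in Rest-/- ESCs. Cacnb4, the subunit of cerebellar channels, had 33 and 7 counts in WT and 13 and 8 counts in Rest-/- ESCs. For Cacnb2 and Cacnb4 both Rest-/- libraries lay between the WT libraries.

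The alpha2delta subunits raise the number of channels at the membrane, and the first of them is the receptor of gabapentin. Cacna2d1 had 340 and 191 counts in WT and 396 and 198 counts in Rest-/- ESCs, or 11.0 and 7.13 against 15.3 and 8.94 CPM. The genotypes overlapped and Rest-/- replicate 1 was the highest library, as it was for the summed fibroblast markers, whose part in this value was not tested. Cacna2d2 had 249 and 225 counts in WT and 157 and 109 counts in Rest-/- ESCs, or 8.04 and 8.40 against 6.08 and 4.92 CPM. In Cacna2d2 both Rest-/- libraries were below both WT libraries, with a log2 fold change of -0.58 (SE 0.27) and an adjusted p of 0.862 in the QL test. Cacna2d3 had 15 and 7 counts in WT and 21 and 10 counts in Rest-/- ESCs, with a log2 fold change of 0.75 (SE 0.58). Cacna2d4, the retinal form, had 1 and 3 counts in each genotype and was not tested, so that the match upstream of its start goes with no measurable level in these cells.

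Among the gamma genes was Cacng7, a TARP that accompanies AMPA receptors. Its mean level per length was the highest of the channel genes in each genotype, although Cacnb3 was above it in WT replicate 1. Cacng7 had 761 and 885 counts in WT and 925 and 958 counts in Rest-/- ESCs, or 24.6 and 33.0 against 35.8 and 43.2 CPM. Both Rest-/- libraries were above both WT libraries, with WT replicate 2 close to Rest-/- replicate 1. The log2 fold change was 0.46 (SE 0.23), with an adjusted p of 0.906 in the QL test and 1.0 in the exact test and DESeq2. Cacng4, another TARP, had 37 and 36 counts in WT and 25 and 18 counts in Rest-/- ESCs, lower in both, with a log2 fold change of -0.51 (SE 0.37). Its close relative Cacng8 had 102 and 71 counts in WT and 101 and 50 counts in Rest-/- ESCs. Cacng6, a relative of the muscle gamma subunit, had 80 and 110 counts in WT and 72 and 92 counts in Rest-/- ESCs. Both genes lie next to Cacng7 on chromosome 7, and both had log2 fold changes of 0.05 with overlapping genotypes. Cacng5 had 3 and 13 counts in WT and 11 and 16 counts in Rest-/- ESCs, and its log2 fold change of 0.99 had a standard error of 0.84. Leaving out WT replicate 1 gave 0.23, and leaving out WT replicate 2 gave 2.50.

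The 3 gamma genes that were not tested were close to 0. Cacng3, a TARP of the cortex, had no counts in either WT library and 3 and 7 counts in the Rest-/- libraries. Cacng2, or stargazin, the founding TARP, had no counts in WT and 1 and 3 counts in Rest-/- ESCs. No fold is given for either gene, since at least 1 Rest-/- library of each was no higher than the floor of 3 counts. Cacng1, the gamma subunit of skeletal muscle, had 2 counts or fewer in every library.

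**Figure D2:**
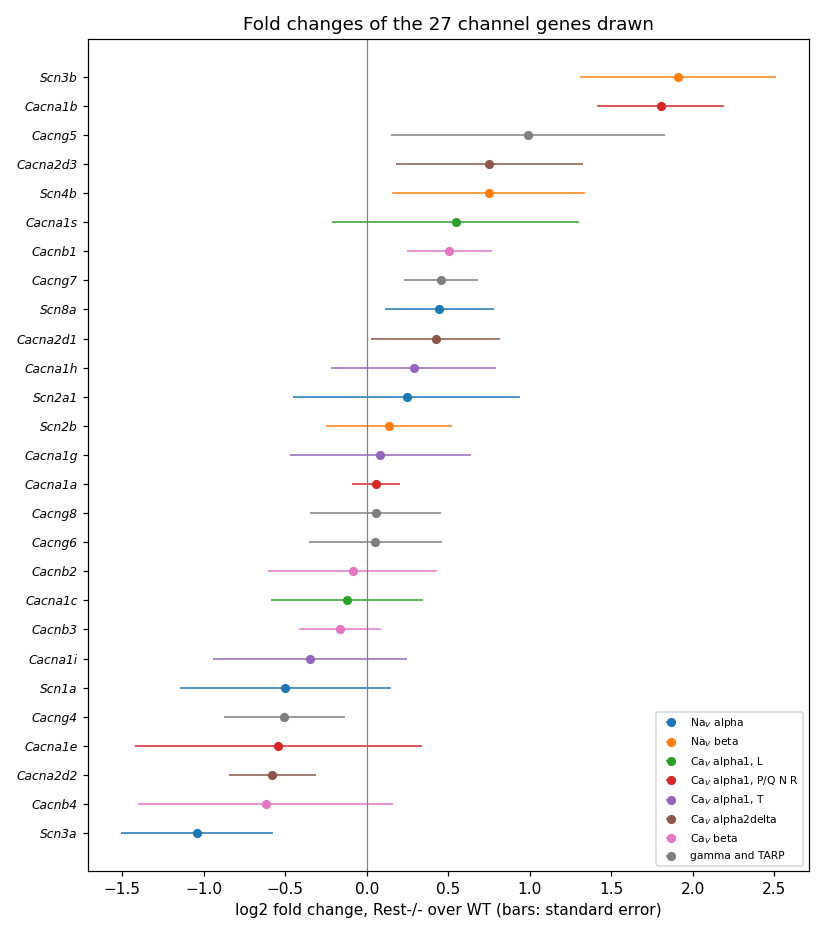
Log2 fold change of Rest-/- over WT for 27 of the 29 tested channel genes, ordered by size and coloured by subunit family, with bars of 1 standard error. Scn3b at 1.91 and Cacna1b at 1.80 stand to the right, Scn3a at -1.04 is farthest to the left, and the others lie between -0.62 and 0.99.

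Compared per length, the most abundant channel transcripts of WT ESCs came from accessory genes. Cacng7 had 13.0 and Cacnb3 12.3 CPM per kb of annotated exon. The ranges over the WT libraries, 11.1 to 14.9 for Cacng7 and 11.3 to 13.2 for Cacnb3, overlapped. Both were above the most abundant pore, Cacna1a, at 3.84 to 3.85 CPM per kb. Cacng6 and Cacng8 were left out of the order because their annotated exons, at 783 and 663 bases, are the shortest of the channel genes and may be incomplete. Below Cacna1a was Scn3b, with 1.68 CPM per kb and libraries at 2.40 and 0.965, a range that took in Cacna2d2 (1.36), Cacnb1 (1.14), Scn3a (1.14) and Cacna2d1 (1.08). In Rest-/- ESCs Cacng7 (17.9) and Cacnb3 (10.9) were again the highest, while Scn3b was at 6.32, with libraries at 8.57 and 4.08, Cacna1a at 3.99 and Cacna1b at 2.92. The lower Scn3b library overlapped with the Cacna1a libraries, which had 3.85 and 4.13 CPM per kb.

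Set against distance from the RE1 motif, the fold changes of the 6 tested channel genes with a full match within 20 kb were 1.91 for Scn3b at 534 bases, 0.24 for Scn2a1 at 884 bases and 1.80 for Cacna1b at 955 bases. Farther out they were 0.46 for Cacng7 at 4537 bases, -0.35 for Cacna1i at 9411 bases and 0.29 for Cacna1h at 11173 bases. Over all 105 tested genes with a full match within 1 kb, these 3 channel genes included, the median log2 fold change was 1.12, and both Rest-/- libraries were above both WT libraries for 68.6%. For the wider set of 635, matched within 20 kb, these values were 0.11 and 31.7%. Scn3b and Cacna1b thus lay above the median of genes with a near match. Scn2a1 lay below it with all libraries, but leaving out WT replicate 1 gave 1.22, above the median, and leaving out Rest-/- replicate 1 gave -0.33, so that 1 library decides its place. Scn3a, the channel gene with the most negative fold change, had no full match within 20 kb, but it had matches with 1 mismatch, the nearest in coding sequence 960 bases from an annotated start. Such a match within 1 kb was found for 5.32% of all positioned genes.

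**Figure D3:**
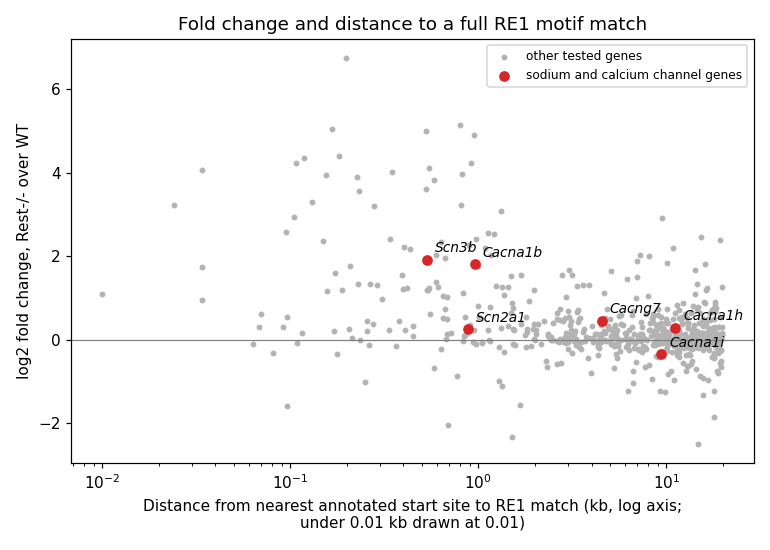
Log2 fold change of Rest-/- over WT against the distance in kb (log axis) from the nearest annotated start to a full RE1 motif match, for the 635 tested genes with a match within 20 kb, with the 6 channel genes in red. Scn3b and Cacna1b lie within 1 kb at 1.91 and 1.80, and Scn2a1 lies between them in distance at 0.24. The 3 genes beyond 4 kb lie between -0.35 and 0.46.

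Channels work with cytosolic and synaptic partners, and a list of 40 of these with a row in the table was read beside the subunits. The list was chosen with earlier results of these data known, so its shares describe these genes and are not independent evidence. Of the 37 tested, none passed the QL test after adjustment, whereas the exact test called 2 higher under either dispersion and DESeq2 called 1 higher, beside the 1.31%, 1.59% and 1.17% of all tested genes. At an unadjusted p under 0.05, 6 were higher and 2 lower, or 16.2% and 5.41%, beside 3.85% and 2.86% of all tested genes. The Rest-/- libraries were both above the WT libraries for 13 of the 37, or 35.1%, and both below for 6, or 16.2%, beside 15.4% of all genes, with a median log2 fold change of 0.24. For the 25 tested partners of calcium channels the first share was 40.0%, and for the 12 of sodium channels it was 25.0%, beside the 16.5% of all tested genes given above.

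Among the sodium channel partners, 4 are fibroblast growth factor homologues that bind the tail of the pore. Of these, Fgf11 (log2 fold change -0.14) and Fgf14 (0.50) overlapped between genotypes, and Fgf12 and Fgf13 did not. Fgf12 had 2 counts in each WT library and 22 and 23 counts in the Rest-/- libraries, a ratio of 13.7 (exact 95% counting interval 4.98 to 52.3, which covers counting error only). It had an adjusted p of 0.197 in the QL test, 0.000186 in the exact test with tag-wise dispersion and 0.114 in DESeq2. The WT counts were under the floor of 3 in both libraries, and the Rest-/- counts were nearly equal to each other. Fgf13 had 317 and 349 counts in WT and 185 and 138 counts in Rest-/- ESCs, a log2 fold change of -0.80 (SE 0.27) and an adjusted p of 0.692 in the QL test.

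Among the calcium channel partners, the named genes included proteins of the presynaptic release site. Rph3a, or rabphilin, a vesicle protein that binds Rab3, had 20 and 6 counts in WT and 112 and 55 counts in Rest-/- ESCs. This was a log2 fold change of 2.94 (SE 0.65), with an adjusted p of 0.436 in the QL test, 0.00463 in the exact test with tag-wise dispersion and 0.00959 in DESeq2. In Rph3a both Rest-/- libraries were above both WT libraries by a wide gap, and replicate 1 was the higher one in each genotype, as for Scn3b. With a library left out the log2 fold change lay between 2.39, without WT replicate 2, and 3.89, without WT replicate 1. Rims2, a scaffold that ties channels to vesicles, had 580 and 589 counts in WT and 940 and 801 counts in Rest-/- ESCs, a log2 fold change of 0.83 (SE 0.18) and an adjusted p of 0.425 in the QL test. Its relative Rims1 had 170 and 135 counts in WT and 70 and 73 counts in Rest-/- ESCs, with a log2 fold change of -0.81 (SE 0.29). The pair thus had fold changes of opposite sign and similar size, and neither passed that test.

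Cachd1, a protein related to alpha2delta, had 315 and 283 counts in WT and 502 and 335 counts in Rest-/- ESCs, with a log2 fold change of 0.74. Cabp1, a calmodulin relative that binds the pore, had 325 and 344 against 425 and 461 counts, with a log2 fold change of 0.67. Jph4, a junctophilin that brings the membrane close to the endoplasmic reticulum, had 271 and 348 against 489 and 388 counts, with a log2 fold change of 0.75. In all 3 genes both Rest-/- libraries were higher in CPM than both WT libraries, with adjusted p of 0.68, 0.737 and 0.74 in the QL test. Rem2, a small GTPase that inhibits calcium channels, had 45 and 65 counts in WT and 85 and 90 counts in Rest-/- ESCs, with a log2 fold change of 0.92. Camk2a, a kinase that calcium entry activates, had 226 and 136 counts in WT and 325 and 193 counts in Rest-/- ESCs, with a log2 fold change of 0.78. Both were higher in CPM in both Rest-/- libraries as well, with adjusted p of 0.823 and 0.835 in that test.

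**Figure D4:**
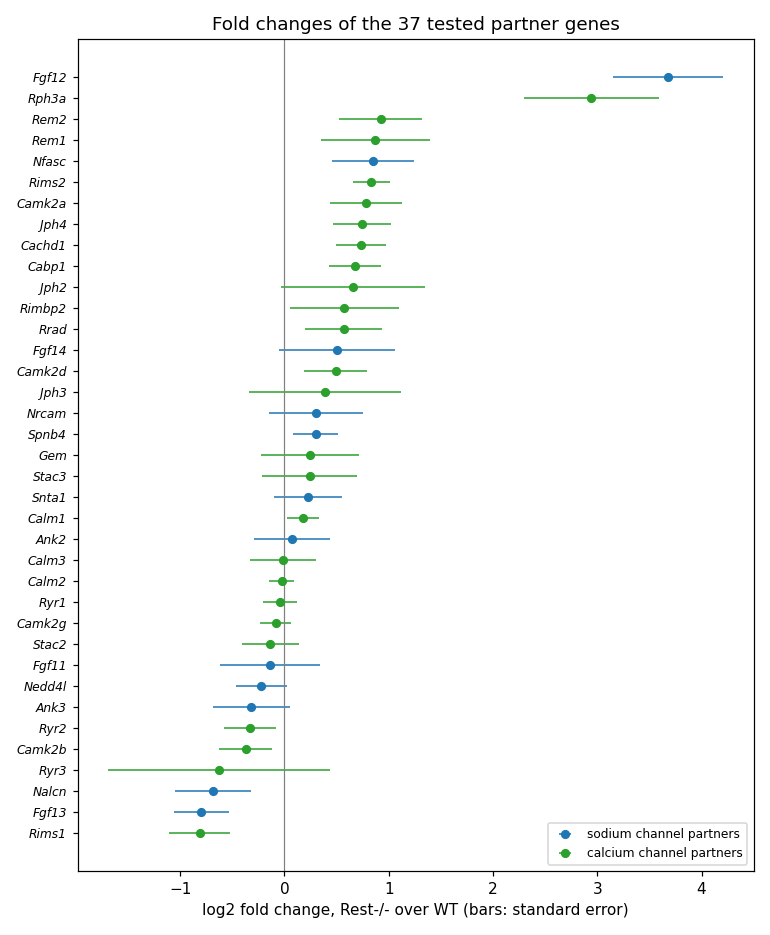
Log2 fold change of Rest-/- over WT for the 37 tested partner genes, ordered by size, with sodium channel partners in blue, calcium channel partners in green and bars of 1 standard error. Fgf12 (fitted from 2 counts in each WT library) and Rph3a at 2.94 stand apart on the right, and Rims1 at -0.81 and Fgf13 at -0.80 are at the left end.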

How the data were processed

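The authors used Subread to map the TruSeq RNA-seq reads of 4 ESC libraries and featureCounts to count them per Entrez identifier, and deposited these whole-number counts as they were, without normalization. The submitters' processing notes name mm9. Versions, annotation and strand setting are not given in the sources used here. The 368 rows without an identifier held no values and were left out.

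From the counts, edgeR 4.0.16 in R 4.3.3 gave TMM factors and the quasi-likelihood test (filterByExpr, prior count 0.125, no block, Benjamini-Hochberg adjusted p under 0.05 over all tested genes). DESeq2 1.42.0, edgeR's exact test, other scalings, filters, a prior count of 2, a replicate block and leaving out each library were the alternatives. Differences between single libraries used log2(CPM + 0.5). Scripts were tested on simulated data. Positions, exon lengths and start sites came from GENCODE M1 on NCBIM37. The motif was to be the consensus at REST regions of the study's supplement, but of its positions 5 reached 1 bit over 1993 sites, so the motif of the study's logo was used. The fixed windows were 20, 5 and 1 kb.

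All channel genes were counted, and 2 of the tested ones are not reported here by name. Of the partners, up to 10 with the smallest unadjusted p and no overlap between genotypes were named. Fgf11 and Fgf14, which overlapped, were added beside their relatives Fgf12 and Fgf13. The members, lists and tests were chosen with earlier results of these data known. Sptbn4 was read under its symbol in the table, Spnb4, while Unc79 and Unc80 matched no row, nor did 1 pluripotency and 2 neural markers. Depth was between 22293966 and 30953863 counts per library, and intervals and floors of 3 counts cover counting error only.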

Additional observations from a re-analysis of the deposited data

How the results depend on the processing

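With 2 libraries per genotype, the number of calls depended on the test. Over all genes, the 9 calls became 53 without a filter on low counts, 3 with at least 10 counts in every library, 274 and 343 under tag-wise and common dispersion in the exact test of edgeR, 238 in DESeq2, and between 60 and 113 with a library left out. Of the channel genes, 0 were called, against 1 and 2 in these forms of the exact test, 2 in DESeq2 and between 0 and 1 with a library left out. Of the partners, 0 were called, against 2 and 2 in the exact test and 1 in DESeq2. With the replicate number as a block the counts were 2621 for all genes, 4 for channel genes (Cacna1b, Scn3b and Cacng7 higher, Scn3a lower) and 14 for partners. No source states that same-numbered libraries were prepared together, although their deviations from the genotype means correlated across 15444 genes (r = 0.807). The cause of these differences was not tested. With a library left out, the lone library of a genotype is assumed to vary like the other pair.

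The 9 channel genes with a motif match within 20 kb became 23 with 1 mismatch allowed (57.5%, beside 39.4% of all positioned genes), 5 within 5 kb and 3 within 1 kb. Of 400 fold changes of channel genes under the alternatives, 361 kept their sign and their side of the threshold, 10 kept their sign and passed it, and 29 changed sign, all of them with a library left out. Leaving out each library in turn, the log2 fold change stayed positive for Scn3b (1.28 to 2.70) and Cacna1b (1.40 to 2.36) and negative for Scn3a (-1.45 to -0.46). In all, 10 of 29 kept their sign. The other 19 did not. The ranges included -0.16 to 1.90 for Cacna1s, -1.25 to 1.02 for Cacna1e, -0.45 to 0.91 for Cacna1g, -0.79 to 0.12 for Cacna1i, -0.18 to 0.96 for Cacna1h, -0.56 to 0.20 for Cacna1c, -0.0027 to 0.11 for Cacna1a, -0.47 to 0.0856 for Cacnb3, -0.54 to 0.55 for Cacnb2, -1.29 to 0.71 for Cacnb4 and -0.015 to 0.76 for Cacna2d1. For Cacng8 the range was -0.39 to 0.39, for Cacng6 -0.27 to 0.42, for Scn2a1 -0.33 to 1.22, for Scn1a -1.59 to 0.0832, for Scn2b -0.16 to 0.39 and for Scn4b -0.12 to 1.27.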
